A study of Mus musculus with 6 samples.

Results

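The genes described here encode the enzymes of glycolysis and of the pentose phosphate pathway, together with lactate dehydrogenase and the monocarboxylate carriers. Members were taken from a written list of symbols, and 33 symbols were matched to Ensembl identifiers through GENCODE M21 (mouse build GRCm38). They are 33 of the 54532 genes listed. Aldoa also had a second identifier with 3 to 10 counts per library, and the identifier with the most counts was used.

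Epididymal fat is a visceral depot of male mice, and its RNA was sequenced in 3 libraries from ND mice and 3 from HFD mice. All were male C57BL/6J mice with no drug treatment, and no genetic modification is named for either group. The normal diet (ND) held 4.5% fat and the high-fat diet (HFD, D12492) 60% fat. The diets were started at 4 weeks of age and given for 16 weeks, so that HFD mice were 20 weeks old. The labels number the libraries but do not say whether each came from 1 mouse, so the p-values measure the spread between these libraries. The RNA came from whole fat, in which fewer cells of a type and less RNA per cell cannot be told apart.

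Glycolysis splits glucose into pyruvate, which lactate dehydrogenase turns into lactate for export by monocarboxylate carriers. Many of its steps are run by isozymes, enzymes of the same reaction encoded by different genes and used to different degrees by different cell types. The pentose phosphate pathway branches off after the first step, yields NADPH in its oxidative branch and exchanges sugar phosphates with glycolysis in its non-oxidative branch. In fat, adipocytes take up glucose in response to insulin and use it to build glycerol and fatty acids, for which NADPH is needed, and macrophages that enter fat in obesity also consume glucose.

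The totals were between 16996896 and 18859320 counts per library, and a gene with 3 counts in a library corresponds to between 0.150 and 0.181 CPM, which covers counting error only. CPM is the count scaled to a common library size with TMM normalization. Over log2 CPM of the 15751 genes tested (genes, not replicates), Pearson's r between an ND and an HFD library was between 0.941 and 0.953 for HFD 2, between 0.922 and 0.932 for HFD 1 and between 0.884 and 0.896 for HFD 3. Markers of other cells also differed between libraries. The summed CPM of 15 adipocyte markers was between 41991 and 55447 on ND and between 21253 and 41590 on HFD, and 3 of the 15 were lower on HFD (median log2 fold change -0.52). Others of the 15 went the other way, none past the threshold. Plin4, Acsl1, Aqp7 and Cd36 had log2 fold changes of 0.03, 0.14, 0.39 and 0.60, and Cd36 did not overlap between the diets. The summed CPM of 15 macrophage markers was between 2085 and 2207 on ND and between 4543 and 10196 on HFD, and 11 of the 15 were higher on HFD (median log2 fold change 1.56). None of these 30 markers was at 0 in every library.

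All 33 genes passed the filter on low counts, so each was tested. With edgeR's quasi-likelihood test and Benjamini-Hochberg adjustment over the 15751 genes, 7 of the 33 (21.2%) had an adjusted p under 0.05, against 15.9% of all genes tested. Hk1, Hk3, Pfkfb4 and Eno2 were higher on HFD, as were 9.85% of all genes tested. Hk2, Pfkfb1 and Tkt were lower, as were 6.04% of all genes. The other 26 did not pass the threshold. The values of the 3 ND libraries did not overlap those of the 3 HFD libraries in 12 of the 33 (36.4%), a smaller share than the 40.9% of all genes tested. The log2 fold change was positive for 15 and negative for 18 of the genes, with a median of -0.07, beside 0.01 over all genes. Its median size was 0.47, beside 0.35 over all genes. Of the 22 genes of glycolysis 4 rose and 2 fell, of the 4 genes of lactate and monocarboxylates none passed with edgeR's quasi-likelihood test, where 2 had an unadjusted p under 0.05 and DESeq2 called 1, and of the 7 genes of the pentose phosphate pathway 1 fell.

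**Figure D1:**
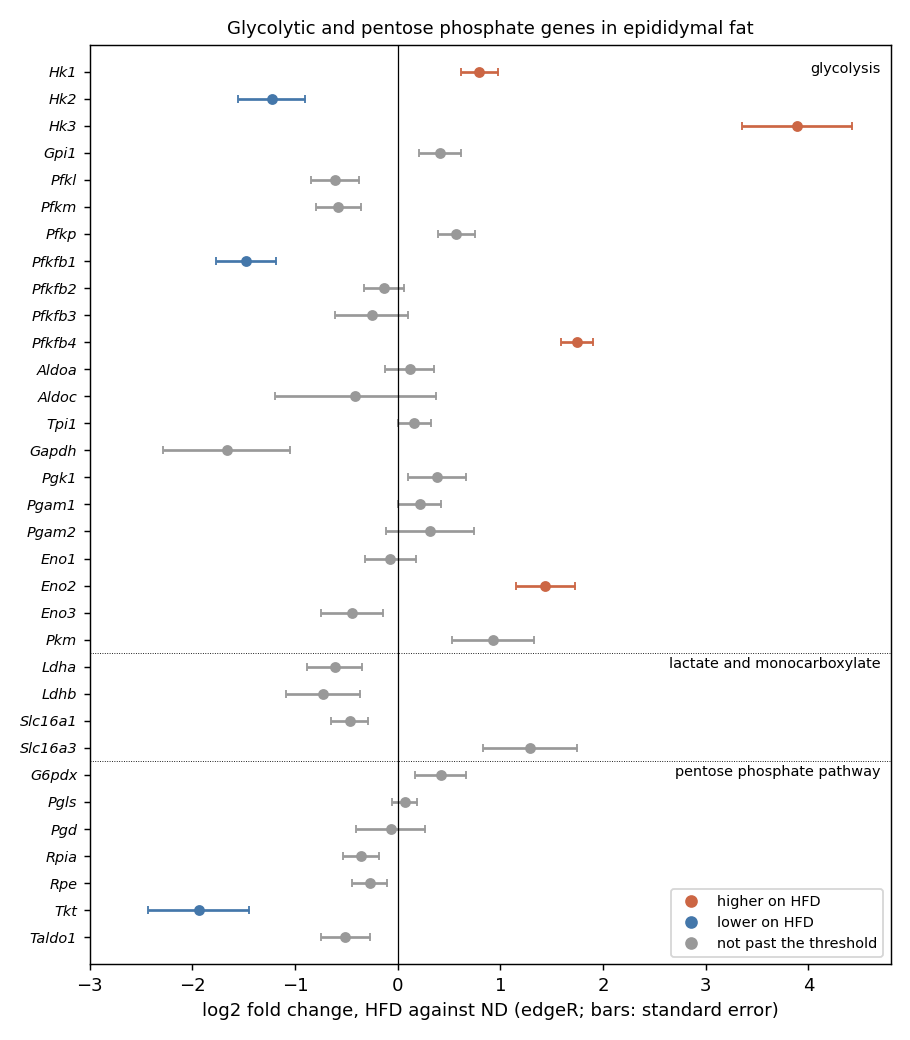
The log2 fold change of HFD against ND (horizontal axis) for each of the 33 genes in pathway order (vertical axis), from edgeR's quasi-likelihood test, with bars of 1 standard error. Of the 7 coloured genes 4 lie to the right of 0 and 3 to the left, and Hk3 lies farthest out at 3.89.

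Hexokinases trap glucose in the cell by phosphorylating it, and this step held changes in both directions. Hk2, the isozyme of insulin-responsive tissues, fell, while Hk3, an isozyme known from myeloid cells, and Hk1, the isozyme present in most tissues, rose. The 250 bases before the start sites of Hk2 and Hk3, the pair that moved farthest in opposite directions at this step, are shown as RefSeq gives them on GRCm38.p6. Hk2 is taken from chr6:82774455-82774704 and Hk3 from chr13:55021386-55021635, both on the minus strand and written 5′ to 3′.
Hk2: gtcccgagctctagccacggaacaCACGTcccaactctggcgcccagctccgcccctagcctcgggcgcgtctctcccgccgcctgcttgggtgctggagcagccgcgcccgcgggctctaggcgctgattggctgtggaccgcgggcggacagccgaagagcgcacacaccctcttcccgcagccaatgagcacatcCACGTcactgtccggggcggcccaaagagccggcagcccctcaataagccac
Hk3: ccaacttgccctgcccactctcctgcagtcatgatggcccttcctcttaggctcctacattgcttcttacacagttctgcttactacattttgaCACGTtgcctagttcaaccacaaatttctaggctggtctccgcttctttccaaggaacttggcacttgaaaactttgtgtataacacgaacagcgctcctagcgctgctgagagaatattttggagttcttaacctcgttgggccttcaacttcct
The capitals mark ACGTG, the core of the hypoxia response element, read on either strand. It starts 226 and 52 bases before the start of Hk2 and 156 bases before that of Hk3.

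ACGTG was found in 16.6% of the 32851 upstream windows of this length in the RefSeq table, and in 16 of the 51 windows of the 33 genes. It is contained in the E-box CACGTG, which was in 6.02% of all windows and in 5 of the 51, and in neither of the windows printed. The other form of the core, GCGTG, was in 28.2% of all windows and in 27 of the 51. The core of the antioxidant response element, TGACNNNGC, was in 10.2% of all windows and in 4 of the 51, and GAGGAAGT, a site of the myeloid factor PU.1, in 2.44% of all and in 1 of the 51. All were searched on both strands, and a match is a run of letters, not evidence of binding.

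Hk2 (ENSMUSG00000000628, chromosome 6 from 82725025 to 82774454) stood at 202, 131 and 132 CPM in the ND libraries and at 63.2, 95.1 and 39.9 CPM in the HFD libraries. Every HFD library was below every ND library, with HFD 2 the highest and HFD 3 the lowest of the diet. It was 2.34-fold lower on HFD (log2 fold change -1.23, SE 0.33, adjusted p = 0.0462 with edgeR's quasi-likelihood test). The adjusted p was under the threshold in 8 of the 16 alternatives, and when 1 library was left out it stayed under it without HFD 2 and was between 0.0592 and 0.150 without ND 1, ND 2, ND 3, HFD 1 or HFD 3.

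Hk3 (ENSMUSG00000025877, chromosome 13 from 55005985 to 55021385) stood at 9.07, 8.64 and 8.15 CPM in the ND libraries and at 100, 52.6 and 230 CPM in the HFD libraries. The ND libraries were close together, while the HFD libraries were spread over a wide range with HFD 3 at the top. It was 14.8-fold higher on HFD (log2 fold change 3.89, SE 0.53, adjusted p = 0.00832 with edgeR's quasi-likelihood test), and it passed the threshold in all 16 alternatives, each library left out in turn among them. Without HFD 3 the log2 fold change of Hk3 was 3.13. Exons of Hk3 overlap those of Unc5a, and the strand setting of the counting is not given in the sources used here.

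Hk1 (ENSMUSG00000037012, chromosome 10 from 62268855 to 62379908) stood at 41.1, 32.8 and 30.4 CPM in the ND libraries and at 56.6, 51.0 and 73.3 CPM in the HFD libraries. The diets did not overlap, and HFD 3 was again the highest. It was 1.73-fold higher on HFD (log2 fold change 0.79, SE 0.18, adjusted p = 0.0274 with edgeR's quasi-likelihood test). The adjusted p was between 0.0564 and 0.0977 without ND 1, ND 2, ND 3 or HFD 1, and stayed under 0.05 without HFD 2 or HFD 3. Exons of Hk1 overlap those of Hk1os, so that reads of the pair may be mixed.

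Levels of different genes were compared as FPKM, which divides the count by the length of the gene. That length covers all annotated exons and can exceed that of a transcript, so shares between genes depend on it. Hk2 made up 79.8% ± 2.23 (SD, n = 3) of the summed FPKM of the 3 hexokinases on ND and 25.5% ± 17.8 (SD, n = 3) on HFD. Hk3 made up 7.43% ± 1.26 (SD, n = 3) on ND and 60.4% ± 20.5 (SD, n = 3) on HFD. By library, the share of Hk3 was 5.997%, 8.37% and 7.94% on ND and 61.3%, 39.5% and 80.4% on HFD, so that it was the leading hexokinase in HFD 1 and HFD 3, while in HFD 2 Hk2 remained ahead with 44.0%. The share of Hk1 overlapped between the diets (12.7% on ND and 14.2% on HFD). The summed FPKM of the step was 32.8 ± 7.82 on ND and 53.0 ± 22.0 on HFD (SD, n = 3).

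The order of the HFD libraries for Hk3 was that of the summed macrophage markers, which were at 4543 CPM in HFD 2, 5951 in HFD 1 and 10196 in HFD 3. For each 1000 CPM of macrophage markers there were 4.11, 4.08 and 3.91 CPM of Hk3 in the ND libraries and 16.8, 11.6 and 22.6 CPM in the HFD libraries, without overlap. The same quotient of Hk1 was lower on HFD, at 18.6, 15.5 and 14.6 on ND and 9.50, 11.2 and 7.19 on HFD. Among the HFD libraries Hk2 ran in the order of the adipocyte markers, which were at 41590 CPM in HFD 2, 28893 in HFD 1 and 21253 in HFD 3. For each 1000 CPM of adipocyte markers there were 4.16, 2.35 and 3.14 CPM of Hk2 in the ND libraries and 2.19, 2.29 and 1.88 CPM in the HFD libraries. These values did not overlap either, though HFD 2 and ND 2 lay close together. Much of the fall in the adipocyte sum lay in 1 marker, Cfd, which was at 13496, 15636 and 11768 CPM on ND and at 1160, 2504 and 162 CPM on HFD. With the other 14 markers the quotient of Hk2 was 5.77, 3.28 and 4.37 on ND and 2.28, 2.43 and 1.89 on HFD. The diets then lie farther apart by construction, because leaving out a marker that fell raises the ND quotients more. No adipocyte marker with higher values on HFD, such as Cd36, was left out. Without Lyz2, the most abundant macrophage marker, the quotient of Hk3 was between 6.71 and 7.18 on ND and between 20.9 and 43.0 on HFD. The part of the cell makeup in these results was not tested beyond these quotients.

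**Figure D2:**
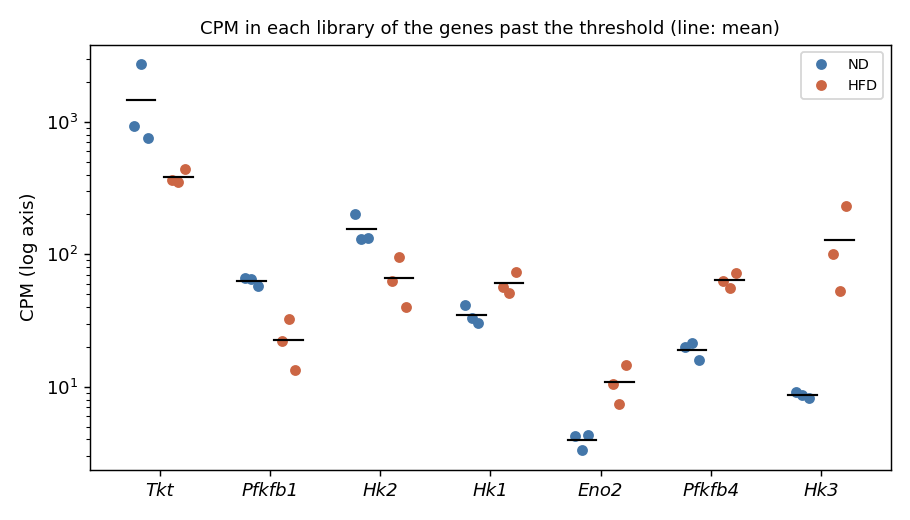
CPM on a log axis (vertical) of the 7 genes past the threshold (horizontal, from the lowest to the highest log2 fold change), with 1 point per library and a line at the mean of the 3 libraries of each diet. No gene overlaps between the diets, and for Hk3 the ND points lie between 8.15 and 9.07 CPM and the HFD points between 52.6 and 230 CPM.

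Phosphofructokinase commits the sugar to glycolysis, and none of its 3 isozymes passed the threshold with edgeR's test or DESeq2, though their unadjusted p of 0.0320 for Pfkl, 0.0331 for Pfkm and 0.0146 for Pfkp were under 0.05. Pfkl, the liver form, stood at 114, 187 and 110 CPM on ND and at 85.0, 104 and 79.7 CPM on HFD (log2 fold change -0.61, SE 0.23, adjusted p = 0.113 with edgeR's quasi-likelihood test). Pfkp, the platelet form, stood at 78.7, 110 and 74.3 CPM on ND and at 124, 121 and 146 CPM on HFD (log2 fold change 0.57, SE 0.18, adjusted p = 0.0703 with edgeR's quasi-likelihood test). Neither gene overlapped between the diets. In CPM, which is not divided by gene length, Pfkl was the higher of the pair in every ND library and Pfkp in every HFD library. In FPKM Pfkl was the higher in every library, on HFD at 12.8, 15.6 and 12.0 against 9.29, 9.05 and 10.9 for Pfkp. The FPKM rests on all annotated exons, which span 13401 bases for Pfkp and 6675 for Pfkl. Their longest coding transcripts have 4145 and 3730 bases, so the order of the pair on HFD depends on the length used. Without TMM normalization the adjusted p of Pfkp was 0.0374. Pfkm, the muscle form, averaged 30.3 ± 5.43 CPM (SD, n = 3) on ND against 20.3 ± 5.12 CPM (SD, n = 3) on HFD (log2 fold change -0.58, adjusted p = 0.114). Pfkm did not overlap between the diets either, and its adjusted p was 0.0429 without HFD 2 and 0.187 without HFD 3.

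Pfkp made up 18.3% ± 0.64 of the summed FPKM of this step on ND and 33.6% ± 5.99 on HFD, and Pfkl 56.3% ± 2.80 and 45.8% ± 2.46 (SD, n = 3). These shares also depend on the length used, while the change of a count ratio between the diets does not. The log2 ratio of Pfkp to Pfkl counts was -0.54, -0.76 and -0.56 on ND and 0.54, 0.22 and 0.88 on HFD. The ratio was farthest from the ND values in HFD 3 and nearest to them in HFD 2. The ratio of the pair was 2.24-fold higher on HFD (two-sided exact permutation test, p = 0.1, adjusted over 13 pairs 0.19). With 3 libraries against 3, 0.1 is the smallest p this test can give.

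Fructose 2,6-bisphosphate, the activator of phosphofructokinase, is made and removed by the 4 Pfkfb enzymes, and here too isozymes moved in opposite directions. Pfkfb4 (ENSMUSG00000025648, chromosome 9 from 108991778 to 109032228), a form first known from testis, stood at 19.8, 21.2 and 16.04 CPM on ND and at 62.7, 55.8 and 72.6 CPM on HFD. All HFD libraries were far above the ND libraries and close to each other. It was 3.35-fold higher on HFD (log2 fold change 1.74, SE 0.16, adjusted p = 0.00344 with edgeR's quasi-likelihood test) and passed the threshold in all 16 alternatives. Beside the macrophage markers, there were 8.98, 10.03 and 7.69 CPM of Pfkfb4 per 1000 CPM of markers on ND and 10.5, 12.3 and 7.12 CPM on HFD, which overlapped.

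Pfkfb1 (ENSMUSG00000025271, chromosome X from 150588229 to 150643878), the liver and muscle form, stood at 66.7, 65.5 and 57.2 CPM on ND and at 22.0, 32.5 and 13.4 CPM on HFD. The diets were well apart, and HFD 3 was the lowest. It was 2.79-fold lower on HFD (log2 fold change -1.48, SE 0.29, adjusted p = 0.0199 with edgeR's quasi-likelihood test). The adjusted p was between 0.0527 and 0.0868 without ND 1, ND 2, ND 3 or HFD 1, and stayed under 0.05 without HFD 2 or HFD 3. For each 1000 CPM of adipocyte markers there were 1.38, 1.18 and 1.36 CPM of Pfkfb1 on ND and 0.762, 0.782 and 0.629 CPM on HFD, without overlap. Its exons overlap those of Apex2.

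Pfkfb3, the inducible form with the highest kinase activity of the family, was the most abundant of the 4 on both diets, with 83.3% of their summed FPKM on ND and 80.5% on HFD. It stood at 1036, 813 and 593 CPM on ND and at 698, 955 and 394 CPM on HFD, and these overlapped (log2 fold change -0.25, SE 0.35, adjusted p = 0.648 with edgeR's quasi-likelihood test). Against Pfkfb3, the log2 count ratio of Pfkfb4 was 2.05 higher on HFD and that of Pfkfb1 fell by 1.26, both without overlap (two-sided exact permutation test, p = 0.1 each, adjusted 0.19). Pfkfb1 counts led Pfkfb4 counts in every ND library and trailed them in every HFD library, at 1235, 1130 and 1144 against 367, 366 and 321 on ND and at 403, 540 and 232 against 1148, 926 and 1260 on HFD. Pfkfb2, the heart form, was low, at 9.45 ± 1.14 CPM (SD, n = 3) on ND against 8.62 ± 1.52 CPM (SD, n = 3) on HFD.

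**Figure D3:**
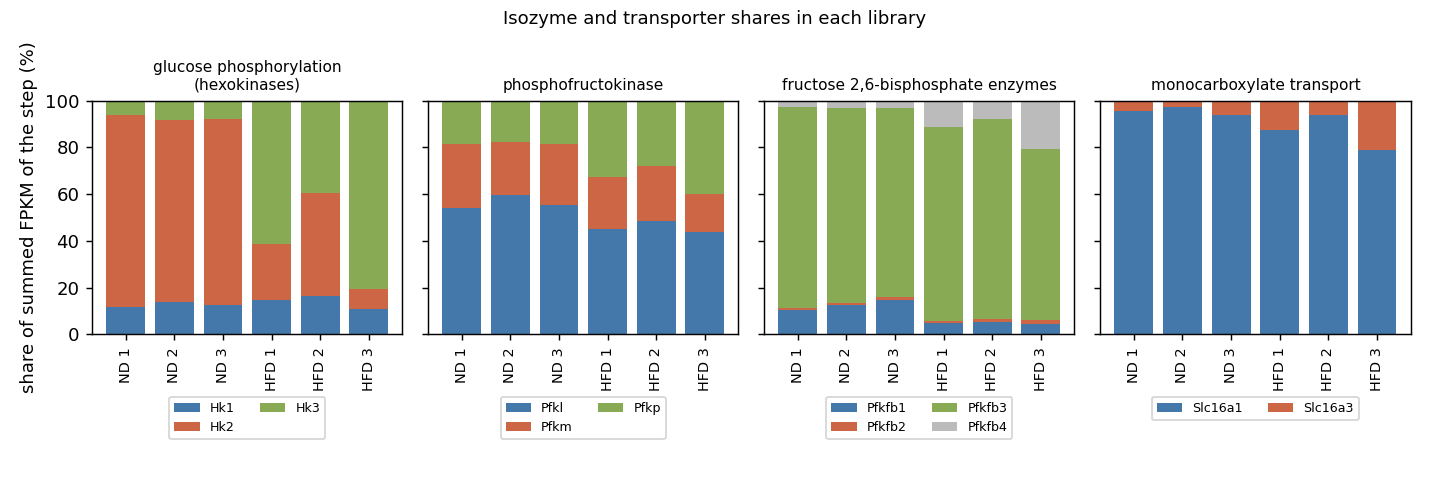
Stacked bars give the share of each gene in the summed FPKM of its step (vertical axis, percent) in each of the 6 libraries (horizontal axis), for the hexokinases, the phosphofructokinases, the fructose 2,6-bisphosphate enzymes and the monocarboxylate carriers. Hk2 holds from 77.9% to 82.3% of the hexokinase bar in the ND libraries and from 8.58% to 44.0% in the HFD libraries.

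The middle of glycolysis, in which aldolase splits the sugar and triose phosphates are converted to pyruvate, held 1 change past the threshold, in Eno2. Aldoa, the main aldolase, had the highest FPKM of the 33 genes as counted, with 368 ± 95.2 on ND and 394 ± 58.0 on HFD (SD, n = 3, log2 fold change 0.12). The rank of Gapdh is uncertain, because it was hard to count. Tpi1, which interconverts the triose phosphates, had an FPKM of 160 ± 19.8 on ND and 177 ± 14.6 on HFD (SD, n = 3, log2 fold change 0.16). Gpi1 (log2 fold change 0.41), which isomerizes the hexose phosphate, Pgk1 (0.38), which makes the first ATP, and Pgam1 (0.21), which moves the phosphate group, overlapped between the diets as well. Pkm, which makes pyruvate, ranged from 317 to 500 CPM on ND and from 406 to 1166 CPM on HFD, with HFD 3 the highest (log2 fold change 0.93, SE 0.40, adjusted p = 0.149 with edgeR's quasi-likelihood test). Its log2 fold change was 1.22 (adjusted p = 0.0391) without HFD 2 and 0.39 (adjusted p = 0.379) without HFD 3.

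Enolase, the step before pyruvate kinase, was mostly Eno1 on both diets. Eno1, the form present in most tissues, stood at 410, 740 and 490 CPM on ND and at 499, 465 and 596 CPM on HFD, with no difference past the threshold (log2 fold change -0.07, SE 0.25, adjusted p = 0.863 with edgeR's quasi-likelihood test). Eno2 (ENSMUSG00000004267, chromosome 6 from 124760053 to 124769673), the form named after neurons, stood at 4.26, 3.31 and 4.35 CPM on ND and at 10.5, 7.35 and 14.5 CPM on HFD. Every HFD library was above every ND library, but Eno2 remained a minor form with 0.84% of enolase FPKM on ND and 2.18% on HFD.

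Eno2 was 2.71-fold higher on HFD (log2 fold change 1.44, SE 0.29, adjusted p = 0.0200 with edgeR's quasi-likelihood test). The adjusted p was between 0.0582 and 0.0829 without ND 1, ND 2, ND 3 or HFD 1, and stayed under 0.05 without HFD 2 or HFD 3. On the log2(FPKM + 1) scale, on which the change of a low gene is understated, it was 0.81. The log2 ratio of Eno2 to Eno1 counts was 1.43 higher on HFD without overlap (two-sided exact permutation test, p = 0.1, adjusted 0.19). For each 1000 CPM of macrophage markers there were 1.93, 1.56 and 2.09 CPM of Eno2 on ND and 1.76, 1.62 and 1.42 CPM on HFD, which overlapped. Eno3, the muscle form, had a log2 fold change of -0.45 and overlapped.

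Some members of this stretch were low or hard to count. Gapdh, the dehydrogenase often used as a reference gene, had only 96 to 435 counts per library on ND and 44 to 92 on HFD. Parts covering 87.96% of its transcript were at least 95% identical, over at least 100 bases, to 81 other annotated genes, which together held 2919 counts in the 6 libraries beside 881 of Gapdh itself. Its log2 fold change of -1.67 (SE 0.62, adjusted p = 0.110 with edgeR's quasi-likelihood test, 0.0237 with DESeq2) is therefore uncertain, and without ND 2, which held the 435 counts, it was -0.66. Such copies also covered 85.6% of the Eno1 transcript, 76.8% of Ldhb, 68.8% of Pgk1, 65.5% of Pkm, 55.04% of Ldha, 54.5% of Gpi1, 43.1% of Pgam1 and 19.3% of Tpi1. None were found for the 7 genes past the threshold. Aldoc and Pgam2, the brain aldolase and the muscle mutase, had 14 to 133 and 14 to 43 counts per library. The 133 counts of Aldoc lay in ND 3, the library with a summed CPM of 246 for 8 epithelial markers, against 21.5 to 31.2 in the others.

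Lactate dehydrogenase and the monocarboxylate carriers link pyruvate to lactate in the blood. Ldha, the form that favours lactate, ranged from 852 to 1529 CPM on ND and from 634 to 834 CPM on HFD without overlap (log2 fold change -0.62, SE 0.27, adjusted p = 0.154 with edgeR's quasi-likelihood test). Ldhb, the form that favours pyruvate, ranged from 54.6 to 72.9 CPM on ND and from 18.8 to 58.1 CPM on HFD with overlap, and Ldha held 88.4% of the FPKM of the pair on ND and 89.6% on HFD. The log2 fold change of Ldhb was -0.73 (adjusted p = 0.205), -1.16 without HFD 2 (adjusted p = 0.0318) and -0.42 without HFD 3 (adjusted p = 0.242).

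Slc16a1 (MCT1), the widely expressed carrier, stood at 75.8, 117 and 86.1 CPM on ND and at 62.5, 75.0 and 63.8 CPM on HFD (log2 fold change -0.47, SE 0.18, adjusted p = 0.114 with edgeR's quasi-likelihood test). Slc16a3 (MCT4), the carrier of lactate-exporting cells, stood at 4.37, 3.94 and 6.998 CPM on ND and at 10.7, 6.14 and 20.6 CPM on HFD. HFD 2 lay within the ND range, and the log2 fold change was 1.29 (SE 0.46, adjusted p = 0.0953 with edgeR's quasi-likelihood test, 0.0323 with DESeq2). It was 1.62 without HFD 2 (adjusted p = 0.0211) and 0.71 without HFD 3 (adjusted p = 0.227). Slc16a3 made up 4.55% of the FPKM of the pair on ND and 13.4% on HFD. Their log2 count ratio was -4.11, -4.88 and -3.62 on ND and -2.54, -3.60 and -1.63 on HFD, a difference of 1.61 whose closest values, ND 3 and HFD 2, almost touched (two-sided exact permutation test, p = 0.1, adjusted 0.19).

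**Figure D4:**
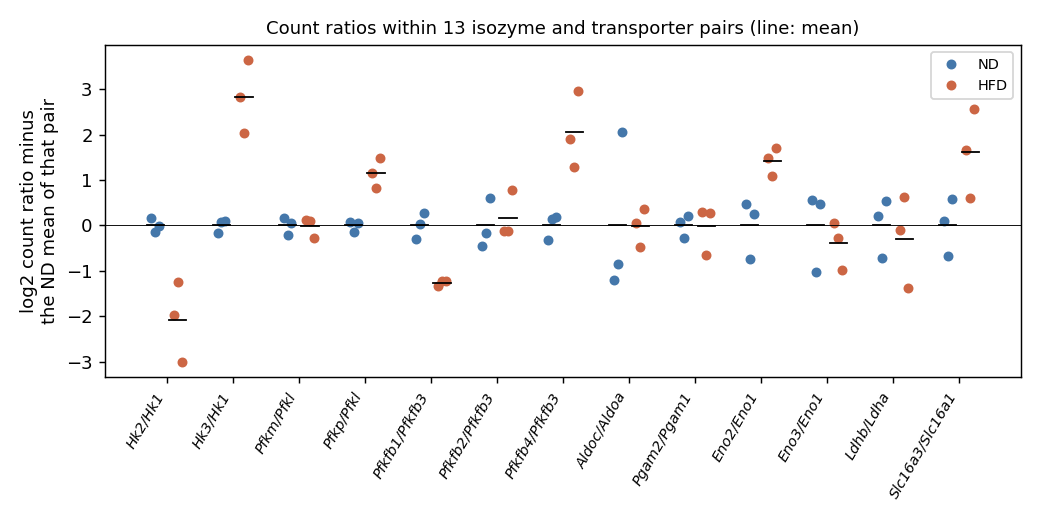
The log2 ratio of counts within each of 13 pairs (horizontal axis, first gene over second), minus the mean of the ND libraries for that pair (vertical axis), with 1 point per library and a line at the mean of each diet. The diets do not overlap in 7 pairs, among them Hk3/Hk1 with a difference of 2.84 and Hk2/Hk1 with a difference of -2.07.

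Of the 13 pairs compared, 7 had ratios that did not overlap between the diets, those of Hk2 and Hk3 to Hk1, Pfkp to Pfkl, Pfkfb1 and Pfkfb4 to Pfkfb3, Eno2 to Eno1 and Slc16a3 to Slc16a1. Each reached the smallest p the test allows (0.1, two-sided exact permutation test, adjusted 0.19), so none passes 0.05. The other 6, among them Aldoc to Aldoa, Pgam2 to Pgam1 and Ldhb to Ldha, overlapped, with differences from -0.40 to 0.17 on the log2 scale. Several pairs share a gene (Hk1, Pfkl, Pfkfb3 or Eno1) and are not independent, and 40.9% of all single genes tested did not overlap either.

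In the pentose phosphate pathway, Tkt fell, and none of the other 6 genes passed with edgeR's test or DESeq2 or had an unadjusted p under 0.05. Tkt (ENSMUSG00000021957, chromosome 14 from 30548359 to 30574720) encodes transketolase, which moves carbon units between sugar phosphates and joins the pathway to glycolysis. It stood at 935, 2744 and 755 CPM on ND and at 365, 352 and 440 CPM on HFD. All HFD libraries were below all ND libraries, and ND 2 stood far above the other ND libraries. It was 3.83-fold lower on HFD (log2 fold change -1.94, SE 0.49, adjusted p = 0.0394 with edgeR's quasi-likelihood test).

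Without ND 2 the log2 fold change of Tkt was -1.13 (adjusted p = 0.0461 with edgeR's quasi-likelihood test), so that library set much of its size. The adjusted p was 0.0452 without ND 3 and between 0.0598 and 0.135 without ND 1, HFD 1, HFD 2 or HFD 3, and it was under the threshold in 7 of the 16 alternatives. For each 1000 CPM of adipocyte markers there were 19.3, 49.5 and 18.0 CPM of Tkt on ND and 12.6, 8.46 and 20.7 CPM on HFD, which overlapped. With Cfd left out, the quotient to the other 14 markers was 26.7, 68.9 and 25.0 on ND and 13.1, 9.003 and 20.9 on HFD, without overlap. Cd36, another marker of the sum, was higher on HFD, from 3202 to 4150.5 CPM on ND and from 5042 to 6108 CPM on HFD. Whether the diets overlapped thus depended on the markers summed, and the quotient without Cd36 was not computed. Exons of Tkt overlap the microRNA gene Mir3076.

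G6pdx, the NADPH-yielding entry enzyme, ranged from 157 to 308 CPM on ND and from 286 to 300 CPM on HFD (log2 fold change 0.42, SE 0.25, adjusted p = 0.276 with edgeR's quasi-likelihood test). Pgd, the next NADPH-yielding enzyme, ranged from 320 to 745 CPM on ND and from 397 to 601 CPM on HFD (log2 fold change -0.07), and Pgls, the lactonase between them, had a log2 fold change of 0.07 (SE 0.12). All 3 overlapped between the diets. In the non-oxidative branch, Taldo1, the transaldolase, ranged from 455 to 706 CPM on ND and from 328 to 494 CPM on HFD (log2 fold change -0.51, SE 0.24, adjusted p = 0.176 with edgeR's quasi-likelihood test). Rpia and Rpe, which interconvert the pentose phosphates, had log2 fold changes of -0.36 and -0.27.

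ND 2 held the highest ND value in 20 of the 33 genes, against 36.4% of all genes tested, and HFD 3 the highest HFD value in 22 of the 33, against 44.1% of all genes tested. Among the genes of the pathway at their ND maximum in ND 2 were Tkt, Pgd, G6pdx, Taldo1, Ldha, Pfkl and Eno1. Me1, the NADPH-yielding malic enzyme of the list of Nrf2 targets and named after its values were seen, was also highest there, at 624, 2040 and 494 CPM in the ND libraries. Summed over the branches, FPKM was 1110 ± 217 on ND and 1250 ± 216 on HFD for glycolysis, 399 ± 117 and 259 ± 20.5 for lactate and monocarboxylates, and 669 ± 285 and 451 ± 62.6 for the pentose phosphate pathway (SD, n = 3). Gapdh, hard to count because of its copies, entered the glycolysis sum at only 0.64 to 6.23 FPKM per library. The ND spread of the pentose phosphate sum came with 994 in ND 2 against 555 and 460 in the others.

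**Figure D5:**
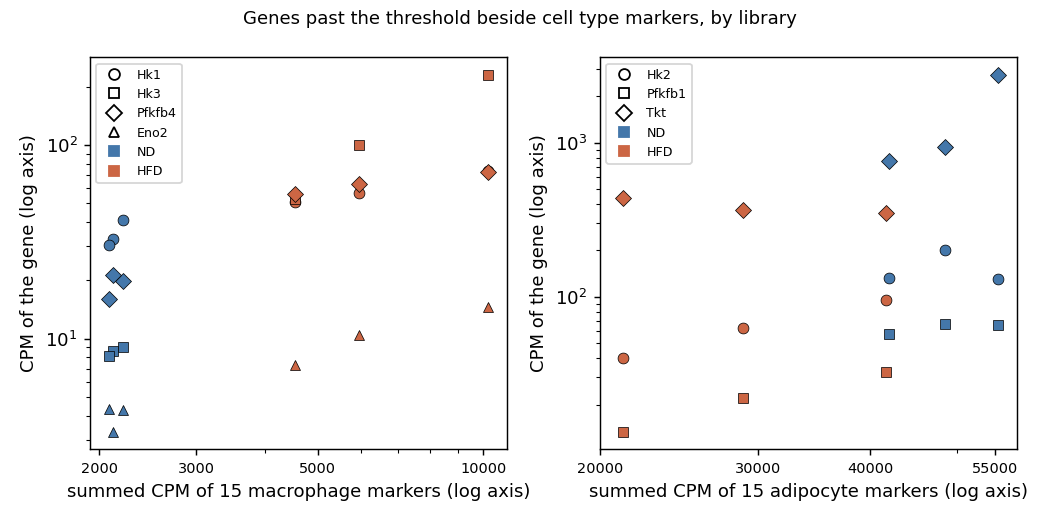
CPM of genes past the threshold (vertical, log axis) against the summed CPM of 15 macrophage markers (left, for the 4 genes higher on HFD) and of 15 adipocyte markers (right, for the 3 genes lower on HFD), with 1 symbol per library and gene on log axes. The macrophage sums lie between 2085 and 2207 in the ND libraries and from 4543 upward in the HFD libraries, and Hk3 rises from 9.07 or less to 52.6 or more.

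Other genes of glucose use were taken from a written list of 33, of which 21 passed the filter, and 1 was higher and 5 were lower on HFD (median log2 fold change -0.28). Prps1, which makes phosphoribosyl pyrophosphate from ribose phosphate, rose from between 79.4 and 86.0 CPM to between 151 and 193 CPM (log2 fold change 1.07, adjusted p = 0.00651 with edgeR's quasi-likelihood test). Mpc1, a subunit of the mitochondrial pyruvate carrier, fell by 1.14 on the log2 scale, and its partner Mpc2 fell by 1.005. Shpk, the sedoheptulose kinase, fell by 1.03 and Khk, the ketohexokinase, by 0.78.

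Uptake of glucose was covered by 3 transporters. Slc2a4 (GLUT4), the insulin-responsive transporter of fat and muscle, stood at 281, 302 and 199 CPM on ND and at 108, 134 and 50.5 CPM on HFD (log2 fold change -1.42, SE 0.35, adjusted p = 0.0379 with edgeR's quasi-likelihood test). Slc2a3 (GLUT3) fell by 1.64 on the log2 scale (SE 0.27, adjusted p = 0.0122). Slc2a1 (GLUT1), the basal transporter, ranged from 14.3 to 20.99 CPM on ND and from 14.6 to 41.2 CPM on HFD, which overlapped.

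Of 9 transcription factors known to act on glycolytic genes, 1 was higher and 3 were lower. Myc rose (log2 fold change 1.07, SE 0.29, adjusted p = 0.0472 with edgeR's quasi-likelihood test). Mlxipl (ChREBP), the glucose-sensing factor, fell by 1.58, Srebf1, a lipogenic factor, by 1.12 and Ppargc1a, a coactivator of mitochondrial genes, by 2.17 on the log2 scale. Of 14 hypoxia response genes outside glycolysis, Car9, a carbonic anhydrase, rose (log2 fold change 2.82, from 0.378 to 0.700 CPM on ND to 1.69 to 5.82 CPM on HFD) and none fell with edgeR's test, where 4 with lower values had an unadjusted p under 0.05 and DESeq2 called 3 lower (median log2 fold change of the list -0.05). Of 8 Nrf2 targets outside the pathway, Hmox1 and Srxn1 rose, by 2.43 and 1.78 on the log2 scale. Me1 was lower without overlap but not past the threshold (log2 fold change -1.78, adjusted p = 0.0614 with edgeR's quasi-likelihood test), and DESeq2 called 1 gene of the list lower. Nqo1 had a log2 fold change of -0.61 with overlap. Slc7a11, with 2 to 17 counts per ND library, was higher without overlap but not past the threshold either (log2 fold change 3.05, adjusted p = 0.0619 with edgeR's quasi-likelihood test).

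Few genes of the remaining marker lists passed the threshold, though sums differed in HFD 3. There the 8 endothelial markers stood at 623 CPM, against 1153 to 1411 CPM in the other libraries (median log2 fold change -0.38). The 8 fibroblast and progenitor markers stood at 4528 CPM there, against 3163 to 3997 CPM in the others. None of the 8 lymphocyte, 8 endothelial, 8 fibroblast and progenitor, 5 erythrocyte, 4 epithelial, 5 mesothelial and 2 epididymis and sperm markers tested passed with edgeR's test. Of these 40 genes 5 had an unadjusted p under 0.05 and DESeq2 called 3. Of 3 neutrophil markers tested 1 rose and 1 fell, of 4 Schwann cell markers 1 rose and 1 fell, and of 4 skeletal muscle markers 1 fell. Over all genes tested, 15.9% passed. Ckm and Myh4 of muscle and Lcn9 and Defb20 of the epididymis were at 0 in every library.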

How the data were processed

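Epididymal fat of ND and HFD mice was measured by RNA-Seq, with 3 libraries per diet grouped by the sample labels. The authors deposited raw counts per gene, without normalization, and an FPKM table of the same libraries. In the 11492 genes with over 50 counts in every library, each deposited FPKM equalled the count over 1 length of the gene and 1 scaling of the library. The paper's methods name TopHat, Cufflinks and GRCm38, while the submitters' processing notes name fastp, HISAT2 2.0.5, featureCounts 1.5.0-p3, DESeq2 1.20.0 and a human build, although the identifiers are of mouse, so which tool made the counts is unsure. Of 54532 identifiers 54409 were found in GENCODE M21.

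HFD was compared with ND by edgeR 4.0.16 (R 4.3.3, quasi-likelihood F-test, glmQLFit with robust=TRUE, TMM, filterByExpr, Benjamini-Hochberg adjustment, threshold 0.05). SE was derived from the F statistic. The log2 count ratios of isozyme pairs were compared by two-sided exact permutation tests. As alternatives, the genes were tested by DESeq2 1.42.0 and by limma-voom (limma 3.58.1), with other scalings and filters, with a block for replicate number, without each library in turn, and by limma on log2(FPKM + 1) or log2(FPKM + 0.1), where a gene had to reach an FPKM of 0.5 in 3 libraries, or without that filter. Near-identical copies were found with BLAST+ 2.17.0. Upstream sequences came from RefSeq on GRCm38.p6, where all 33 genes matched. Quotients to marker sums, also without Cfd or Lyz2, were chosen after the values were seen.

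The members and lists were chosen with earlier results of these data known. Values in every library are given for members past the threshold and for both genes of pairs without overlap, and at most 3 genes per list and direction were to be named from other lists; Mpc2 and Khk were added after their values were seen. Some results are not reported here. On simulated data edgeR's test recovered 62 of 100 genes changed 2-fold and 97 of 100 changed 4-fold among 15480 genes, with 15 false calls. The changed genes were drawn only from those above a minimum mean CPM, so the recovery does not cover low genes such as Aldoc and Pgam2. Far fewer genes were changed than were called in the real data, and the simulated libraries of a diet varied independently.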

Additional observations from a re-analysis of the deposited data

How the results depend on the processing

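With 1 library left out, the number of all genes called ranged from 474 (without HFD 1) to 3940 (without HFD 2) beside 2504 with all, with 337 to 2368 higher and 94 to 1572 lower. Of the 33 genes 2 to 6 were then higher and 0 to 4 lower, and only Hk3 and Pfkfb4 passed in all of these. DESeq2 called 1596 genes lower. Unfiltered log2(FPKM + 1) with limma called 649 genes, 394 higher and 255 lower, with 2 members higher and 0 lower, and edgeR without a filter left 1 member lower. In the alternatives that test more genes the adjustment runs over more of them, and fits with 5 libraries have fewer samples, so that the causes beyond these were not tested.

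Same-numbered libraries did not deviate together (r from -0.09 to -0.01), so the numbers were not taken as pairs. With a block for replicate number, 1886 genes were called, among them 4 members higher and 2 lower, Pfkm and Slc16a3 in and Hk1, Hk2 and Tkt out. With that block the adjusted p of Pfkm was 0.0476 and that of Slc16a3 0.0464. The differences of the isozyme ratios are the same by construction, and the smallest exact p rises from 0.1 to 0.25.

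Genes near 0 turned sign. Aldoc went from -0.41 to 0.083 with limma-voom, 0.048 with the block and 0.035 on log2(FPKM + 0.1). With 1 library left out the log2 fold change ranged from -0.052 to 0.34 for Aldoa, -0.87 to 1.01 for Aldoc, -0.24 to 0.21 for Eno1, -0.57 to 0.00486 for Pfkfb3, -0.014 to 0.36 for Pgam1, -0.084 to 0.63 for Pgam2, -0.34 to 0.36 for Pgd and -0.017 to 0.14 for Pgls. The ratio difference ranged from -0.62 to 1.01 for Aldoc/Aldoa, -0.75 to 0.26 for Ldhb/Ldha, -0.13 to 0.48 for Pfkfb2/Pfkfb3, -0.13 to 0.11 for Pfkm/Pfkl and -0.19 to 0.29 for Pgam2/Pgam1. Genes of a few CPM, such as Aldoc, Pgam2 and Eno2, carry the largest counting error.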
